A study of Homo sapiens with 24 samples.

Results

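TAGLN and 9 further genes of the actin-based contractile apparatus were described across 4 glioblastoma cell lines measured by CAGE-Seq. The 10 genes (TAGLN, TAGLN2, ACTA2, ACTG2, CNN1, CNN2, MYL9, TPM1, TPM2, and CALD1) were picked by symbol from a table of 43037 genes. TAGLN was chosen because its values in U87MG and DBTRG-05MG were already known, so the contrasts of these lines are given for the 10 genes as values and not as tests. CAGE-Seq counts tags at the 5′ ends of capped transcripts, and the deposited values are CPM, the tags of a gene for each 1000000 tags of its library. U87MG, T98G, U251MG, and DBTRG-05MG are established lines grown from human glioblastoma, a malignant brain tumor. Each line had 3 “Vec” libraries and 3 “WWOX” libraries, 24 in all. The “WWOX” cells carried WWOX, a tumor suppressor gene, from the vector pLenti-GIII-CMV-GFP-2A-Puro, in which the viral CMV promoter is active in most cell types. The “Vec” cells received Puro-Blank Lentivirus, so both variants were infected (multiplicity of infection 1.5, polybrene at 8 µg/mL, medium changed after 24 h) and selected with puromycin at 1 µg/mL after 72 h. Selection was described as clonal, and the labels do not say whether the 3 libraries of a variant came from separate clones or cultures, so p values measure the spread between these libraries. No other treatment or genotype was given that separated the variants, although GFP is in the name of the “WWOX” vector alone. The culture medium was MEM for T98G, an RPMI medium for DBTRG-05MG, and EMEM for both U87MG and U251MG.

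Smooth muscle cells contract when myosin pulls on actin filaments, and fibroblasts and tumor cells use many of the same proteins in stress fibers. ACTA2 and ACTG2 are the smooth muscle actins, MYL9 is a regulatory light chain of myosin, and tropomyosins (TPM1, TPM2), caldesmon (CALD1), calponins (CNN1, CNN2), and transgelins (TAGLN, TAGLN2) bind along the filaments. Many of these genes are known targets of serum response factor (SRF), which binds a short sequence called the CArG box and works with myocardin or its relatives MRTFA and MRTFB.

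The CArG boxes are shown because they are the regulatory sequence that links several of these genes. RefSeq promoter windows of 300 bases (250 before and 50 after a transcript start, GRCh38.p14) were searched for the CArG box, whose form reads the same on both strands. Entries matched 8 of the 10 genes, with 15 windows between them, and not TAGLN and MYL9. An exact CArG box was present in 1.293% of all 35116 windows, and a form at most 1 base off in 8.127%. Exact boxes were present in ACTG2, at -110 and -73, and in CNN2, at -89 from the start. ACTA2 had forms 1 base off at -121 and -71 in its downstream window, and CALD1 had one at -26. The stretch from 160 to 61 bases before the start is given below for 3 genes, from chr2:73892848-73892947 (plus strand), chr10:88952834-88952933 (minus strand), and chr19:1026448-1026547 (plus strand). Capitals mark the CArG box or the form 1 base off.
ACTG2: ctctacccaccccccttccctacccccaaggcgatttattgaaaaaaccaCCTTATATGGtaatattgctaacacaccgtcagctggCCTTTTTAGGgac
ACTA2: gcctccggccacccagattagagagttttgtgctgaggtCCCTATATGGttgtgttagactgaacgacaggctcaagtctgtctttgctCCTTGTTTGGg
CNN2: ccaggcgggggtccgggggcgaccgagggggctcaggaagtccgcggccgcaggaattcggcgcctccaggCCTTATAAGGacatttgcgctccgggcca
A match is a description of the letters in a window and does not show that SRF is bound. ACTG2 and CNN2, which both hold an exact box, differed widely in level, and CPM can be compared between genes here because CAGE counts transcript ends and does not scale with length. ACTG2 never exceeded 2.38 CPM, whereas CNN2 was between 181 and 701 CPM in all 24 libraries.

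Libraries held between 10756072 and 16953689 tags (median 14584829), and a count of 0 allows up to 3 tags, which is 0.177 to 0.279 CPM in these libraries and covers counting error only. For the comparisons, values were put on a log2 scale after trimmed mean of M-values (TMM) scaling and the addition of 0.5 to the CPM. The log2FC understates the change of genes near 0 on this scale. A gene needed at least 5 CPM in 1 or more libraries to be tested (12327 genes), which kept 8 of the 10 genes and left out ACTG2 and CNN1. The 3 “WWOX” libraries of U251MG resembled each other less than those of other groups. Their mean correlation with their replicates across genes was 0.906, 0.904, and 0.930, against 0.949 to 0.983 in the other 21 libraries. Leaving out each of them in turn is given with the counts below. WWOX itself was higher in all 3 “WWOX” libraries of U87MG (60.98 to 65.96 CPM against 33.92 to 40.12) and DBTRG-05MG (27.96 to 31.97 against 20.36 to 22.21). The libraries overlapped in T98G (45.09 to 61.82 against 34.25 to 57.20) and U251MG (56.73, 17.38, and 38.01 against 31.38 to 36.84). The second library labelled “WWOX” of U251MG thus held less WWOX than any “Vec” library of that line. Transcripts of the vector start at its CMV promoter, so their tags need not count toward the WWOX gene. These values thus do not settle whether the library matches its label. Limma calls of the 8 genes and of the pathway lists in U251MG are given with and without this second library where they differ. The share of all genes that passed without it is not given here. Limma with Benjamini-Hochberg adjustment passed WWOX in none of the 4 lines (adjusted p 0.1364, 0.5552, 1.0, and 0.7694 for U87MG, T98G, U251MG, and DBTRG-05MG), with an unadjusted p of 0.00704 in U87MG and of at least 0.0952 elsewhere. DESeq2 passed it in U87MG (adjusted p = 0.047), and edgeR and limma-voom in none. These values are of RNA, whereas the authors report that Western blot of extracted protein established the efficiency of transduction.

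TAGLN (transgelin, ENSG00000149591.17, chromosome 11 from 117199370 to 117207464 of hg38, plus strand) stabilizes actin bundles and is a classical marker of smooth muscle. In U87MG it stood at 0.50, 0.39, and 0.70 CPM in the 3 “Vec” libraries and at 81.01, 29.18, and 31.17 CPM in the 3 “WWOX” libraries. In DBTRG-05MG it stood at 1.64, 1.03, and 1.32 CPM in “Vec” libraries and at 20.00, 38.30, and 77.31 CPM in “WWOX” libraries. The gene was thus low in the control cells of both lines, and no library of the variants overlapped. The log2FC was 5.38 ± 0.434 (SE) in U87MG and 4.36 ± 0.434 in DBTRG-05MG, and the ratio of mean CPM was 89.2 and 34.0. Among the genes tested, the rank of TAGLN rose from the 8.4th to 9.5th percentile in U87MG “Vec” to the 66.0th to 83.3rd in “WWOX”. In DBTRG-05MG it went from the 7.2nd to 8.3rd percentile to the 49.1st to 81.9th.

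T98G showed the opposite order. TAGLN stood at 11.53, 15.35, and 6.38 CPM in “Vec” libraries and at 6.32, 4.38, and 3.96 CPM in “WWOX” libraries, so the lowest “Vec” library lay just above the highest “WWOX” library. The log2FC of -1.05 ± 0.434 did not pass the threshold of 0.05 (limma, adjusted p = 0.3326). In U251MG, TAGLN was near the limit of detection in both variants, with 0.41, 0.40, and 0.54 CPM in “Vec” and 0.14, 0.86, and 0.61 CPM in “WWOX” (log2FC 0.09 ± 0.434, limma adjusted p = 0.973). The T98G effect minus the U251MG effect was -1.14 ± 0.613 (limma, adjusted p = 0.4091). The “WWOX” cells of U87MG and DBTRG-05MG had the highest group means of TAGLN (47.12 ± 29.37 and 45.20 ± 29.27 CPM, SD, n = 3), and their libraries overlapped. T98G “Vec” (11.09 ± 4.5) and T98G “WWOX” (4.89 ± 1.26) followed, then DBTRG-05MG “Vec” (1.33 ± 0.303), whose libraries were all above those of the 3 groups below it. U251MG “WWOX” (0.535 ± 0.366), U87MG “Vec” (0.528 ± 0.160), and U251MG “Vec” (0.446 ± 0.0775) had overlapping libraries. TAGLN shares its span with PCSK7 on the opposite strand and with an unnamed gene on the same strand, and the sources used here do not state whether strand was used in counting.

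**Figure D1:**
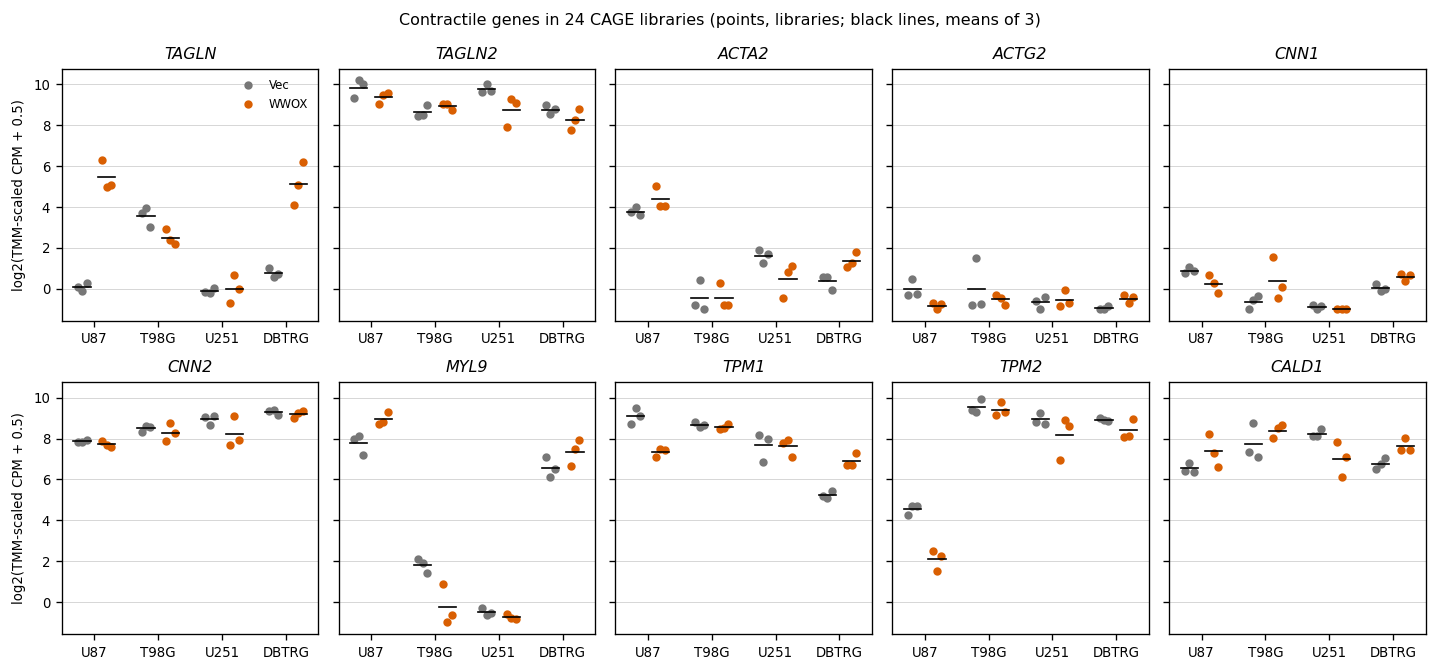
Each panel shows 1 of the 10 genes, with log2(TMM-scaled CPM + 0.5) on the vertical axis and the 4 cell lines on the horizontal axis, as gray points for “Vec” libraries, orange points for “WWOX” libraries, and black lines for the mean of 3. TAGLN is near 0 in “Vec” of U87MG and above 4 in all “WWOX” libraries of U87MG and DBTRG-05MG, and ACTG2 and CNN1 stay below 2 in every library.

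TAGLN2 (ENSG00000158710.15, chromosome 1) encodes the transgelin that is common outside muscle, and its level did not follow that of TAGLN. In U251MG it stood at 799, 1138, and 826.7 CPM in “Vec” libraries and at 287, 493.6, and 667.5 CPM in “WWOX” libraries. All 3 “WWOX” libraries were lower, yet the log2FC of -1.01 ± 0.321 did not pass the threshold (limma, adjusted p = 0.1946). In T98G it stood at 374.2 ± 46.7 CPM in “Vec” libraries and at 452.5 ± 41.7 CPM in “WWOX” libraries (log2FC 0.28 ± 0.321, limma adjusted p = 0.811). In U87MG (log2FC -0.47 ± 0.321) and DBTRG-05MG (-0.49 ± 0.321) the libraries of the variants overlapped. TAGLN3, the last of the transgelin genes, is mainly expressed in neurons and was part of a list of non-muscle genes described further on. In U87MG it fell from 9.73 ± 6.49 to 2.05 ± 0.584 CPM (log2FC -1.91 ± 0.486, limma adjusted p = 0.02696), a call that was lost in 6 of 11 alternatives, edgeR and limma-voom among them. Its mean was also lower in “WWOX” libraries of T98G (0.685 against 0 CPM in all 3), U251MG (3.29 against 1.16), and DBTRG-05MG (65.2 against 28.8), which did not pass (limma, adjusted p = 0.3086, 0.3055, and 0.6049).

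The smooth muscle actins were low. ACTA2 (ENSG00000107796.13, chromosome 10 from 88935074 to 88991339) was most abundant in U87MG, with 11.65, 13.52, and 11.50 CPM in “Vec” and 32.98, 14.93, and 15.16 CPM in “WWOX” (log2FC 0.60 ± 0.423). In DBTRG-05MG it stood at 1.05, 1.03, and 0.53 CPM in “Vec” libraries and at 1.89, 2.2, and 3.08 CPM in “WWOX” libraries (log2FC 1.00 ± 0.423). All “WWOX” libraries of both lines were above their “Vec” libraries, in U87MG by little except in the first. In U251MG the order was the reverse, with 3.24, 2.07, and 2.81 CPM in “Vec” and 0.27, 1.00, and 2.03 CPM in “WWOX” (log2FC -1.13 ± 0.423, limma adjusted p = 0.2818). In T98G no library exceeded 0.88 CPM and no direction could be given (log2FC 0.02 ± 0.423, limma adjusted p = 0.9995, with a sign that turned in 4 of the alternatives). ACTA2 overlaps STAMBPL1, FAS, and ACTA2-AS1 on the opposite strand and an unnamed gene on the same strand. In DBTRG-05MG the 478 genes tested on chromosome 10 lay higher than all genes by a median of 0.20 in log2FC. Shifts of this size were also present on chromosome 9 in DBTRG-05MG (-0.20, the chromosome of TPM2) and on chromosome 15 in U251MG (0.23, that of TPM1). The part of overlapping genes or of these shifts in the values was not tested.

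ACTG2 and CNN1, the enteric smooth muscle actin and the smooth muscle calponin, stayed too low for the test. ACTG2 reached at most 2.38 CPM, in 1 T98G “Vec” library whose replicates had 0.07 and 0.08 CPM. CNN1 reached at most 2.23 CPM, in 1 T98G “WWOX” library, and was at 0 in all 3 “WWOX” libraries of U251MG. MYH11, the myosin heavy chain that defines mature smooth muscle, had at most 4 tags in any library, MYOCD (myocardin) at most 2, and DES (desmin) at most 15. Of the list of 18 other smooth muscle contractile genes that holds MYH11 and DES, 9 stayed below 5 CPM in every library, and the other 9 reached from 14.6 CPM (PPP1R12B) to 896.5 CPM (CSRP1), with SMTN (smoothelin) at 250.1 and MYLK (myosin light chain kinase) at 177.2 CPM. Fewer cells with a transcript cannot be told apart from less RNA per cell in bulk libraries.

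MYL9 (ENSG00000101335.10, chromosome 20) encodes the regulatory light chain that is phosphorylated to start contraction. It was the only one of the 8 genes that passed the threshold in T98G or U251MG. In T98G it stood at 3.52, 3.38, and 1.79 CPM in “Vec” libraries and at 1.21, 0, and 0.13 CPM in “WWOX” libraries, so the variants did not overlap. It fell by 2.06 ± 0.399 on the log2 scale (limma, adjusted p = 0.009). Over the alternatives the log2FC ran from -3.92 (limma-voom) to -1.53 (a pseudocount of 1). The call remained in 10 of 11 alternatives with all libraries and was lost in a model of T98G alone (adjusted p = 0.2754). It was also lost without the first “Vec” library or without the second or the third “WWOX” library of T98G, when the log2FC was -1.92, -1.69, and -1.87. MYL9 was hardly present in U251MG (0.228 ± 0.0859 CPM in “Vec” and 0.115 ± 0.0787 CPM in “WWOX”, log2FC -0.25 ± 0.399, limma adjusted p = 0.8885). In U87MG it was abundant and higher in all “WWOX” libraries, with 226.7, 245.8, and 144.4 CPM in “Vec” and 427, 421.2, and 591 CPM in “WWOX” (log2FC 1.18 ± 0.399). In DBTRG-05MG it stood at 142.7, 70.57, and 104.7 CPM in “Vec” libraries and at 120.7, 204.5, and 249.9 CPM in “WWOX” libraries, with overlap (log2FC 0.78 ± 0.399). Thus MYL9 and TAGLN had the same sign of log2FC in U87MG, T98G, and DBTRG-05MG, although “Vec” cells of U87MG had much MYL9 and almost no TAGLN.

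**Figure D2:**
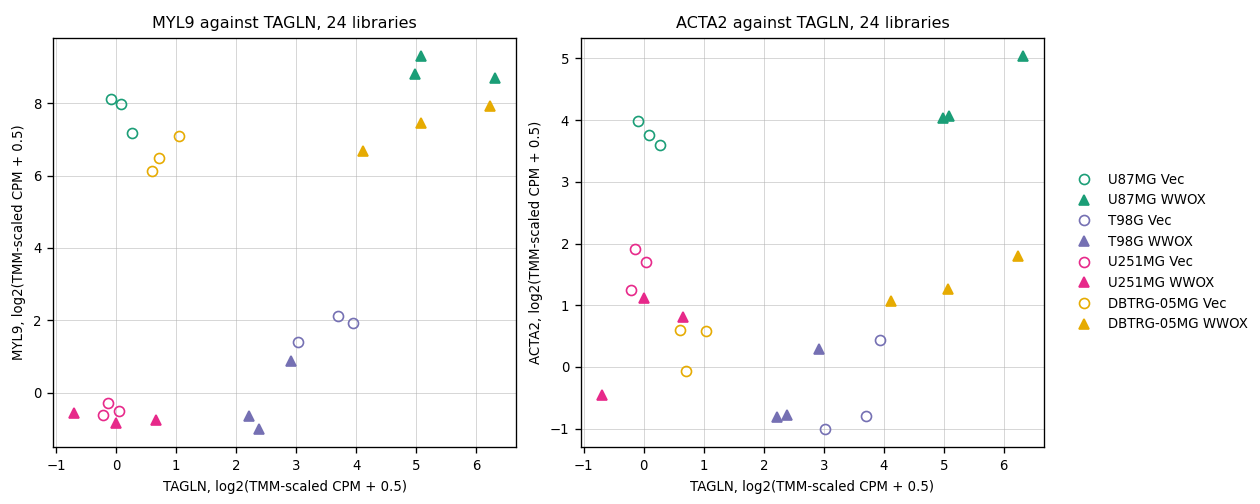
Each symbol is 1 of the 24 libraries, colored by cell line, with open circles for “Vec” and filled triangles for “WWOX”, and both axes give log2(TMM-scaled CPM + 0.5) for TAGLN (horizontal) and MYL9 (left) or ACTA2 (right). The “Vec” and “WWOX” libraries of U87MG and DBTRG-05MG are far apart on the TAGLN axis and closer on the MYL9 and ACTA2 axes, and T98G shows TAGLN without ACTA2.

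The 2 tropomyosin genes code for rods that lie along the actin filament. TPM1 (ENSG00000140416.23, chromosome 15) stood at 380.1, 636.9, and 544.2 CPM in U87MG “Vec” libraries and at 140, 166.9, and 159.3 CPM in U87MG “WWOX” libraries. In DBTRG-05MG it stood at 37.32, 34.06, and 49.20 CPM in “Vec” libraries and at 122, 118.5, and 159.3 CPM in “WWOX” libraries. The log2FC was -1.78 ± 0.294 in U87MG and 1.65 ± 0.294 in DBTRG-05MG, without overlap in either, so the “WWOX” cells of both lines reached similar levels from opposite sides. In T98G (382.3 ± 43.1 against 353.1 ± 46.2 CPM) and U251MG (225.1 ± 85.6 against 207.7 ± 47.2 CPM) the log2FC was -0.12 ± 0.294 and -0.07 ± 0.294 (limma, adjusted p = 0.9281 and 0.9713). TPM1 has 17 annotated transcript starts among its protein-coding transcripts, and a single value per gene does not separate them.

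TPM2 (ENSG00000198467.16, chromosome 9) was low in U87MG, with 16.83, 22.10, and 25.81 CPM in “Vec” and 5.32, 2.24, and 4.07 CPM in “WWOX” (log2FC -2.45 ± 0.380). It was between 147 and 831 CPM in every library of the other 3 lines. The log2FC was -0.13 ± 0.380 in T98G and -0.76 ± 0.380 in U251MG (limma, adjusted p = 0.9384 and 0.4507), and -0.53 ± 0.380 in DBTRG-05MG, all with overlap. In U87MG “WWOX” cells, then, TAGLN was at its highest of any group mean and TPM2 at its lowest.

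Caldesmon and the second calponin regulate how myosin meets actin. CALD1 (ENSG00000122786.20, chromosome 7) stood at 281.9, 309.5, and 356.5 CPM in U251MG “Vec” libraries and at 266, 54.64, and 166.9 CPM in U251MG “WWOX” libraries. The “WWOX” libraries were lower but far apart, and the log2FC of -1.24 ± 0.425 did not pass the threshold (limma, adjusted p = 0.234). In DBTRG-05MG it stood at 95.91, 108.2, and 151.2 CPM in “Vec” libraries and at 204.7, 301, and 182.2 CPM in “WWOX” libraries (log2FC 0.88 ± 0.425). In U87MG it stood at 76.69, 99.37, and 80.80 CPM in “Vec” libraries and at 306.8, 145, and 89.43 CPM in “WWOX” libraries, with overlap (log2FC 0.83 ± 0.425). In T98G the libraries overlapped (237.1 ± 180.8 against 318.1 ± 79.1 CPM, log2FC 0.65 ± 0.425, limma adjusted p = 0.6091). CNN2 (ENSG00000064666.15, chromosome 19) was the only one of the 8 genes tested whose libraries overlapped in all 4 lines. Its log2FC was -0.14, -0.22, -0.69, and -0.11 (each ± 0.285) in U87MG, T98G, U251MG, and DBTRG-05MG (limma, adjusted p = 0.84 in T98G and 0.3488 in U251MG).

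**Figure D3:**
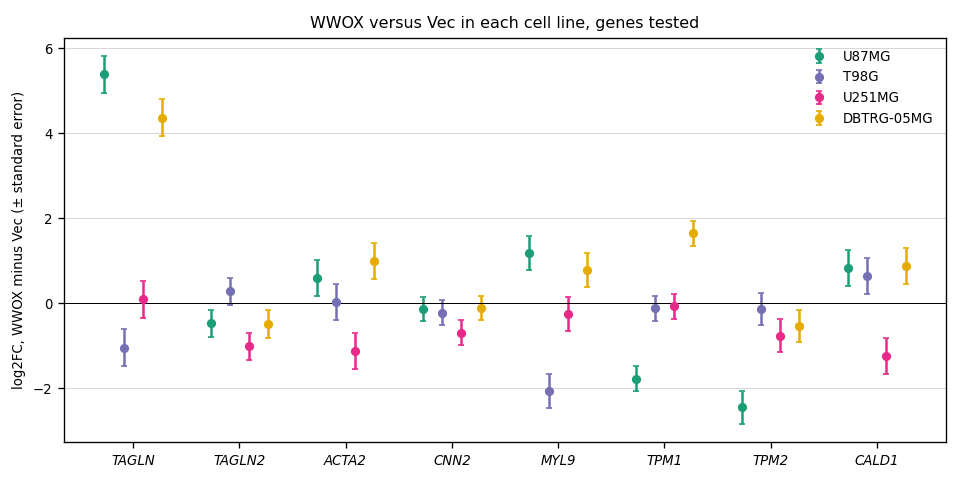
The log2FC of “WWOX” minus “Vec” is plotted for the 8 genes tested, with 1 colored point per cell line and bars for the standard error. TAGLN in U87MG (5.38) and DBTRG-05MG (4.36) lies far above the other values, TPM1 has opposite signs in the same lines (-1.78 and 1.65), and MYL9 in T98G is at -2.06.

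Counted together, the 8 genes had a median log2FC of 0.23, -0.12, -0.73, and 0.83 in U87MG, T98G, U251MG, and DBTRG-05MG, beside -0.01, -0.05, 0.00, and 0.00 for all genes tested. The median in U87MG ranged from 0.009 to 0.341 when single libraries were left out (lowest without the first “WWOX” library of U87MG). In T98G, 1 of 8 genes passed the threshold (MYL9, lower), beside 1.14% of all genes, and in U251MG 0 of 8 passed by limma, beside 0.316%. At an unadjusted p under 0.05, T98G had 2 of 8 genes (MYL9 and TAGLN, both lower), beside 11.5% of all genes. U251MG had 4 of 8 (ACTA2, CALD1, CNN2, and TAGLN2, all lower), also beside 11.5%, and in U251MG edgeR, limma-voom, and DESeq2 each passed 0 after adjustment. Leaving out single libraries of U251MG kept the log2FC negative for TAGLN2 (-1.30 to -0.59), ACTA2 (-1.44 to -0.66), CNN2 (-1.17 to -0.42), and CALD1 (-1.64 to -0.82). Without the second library labelled “WWOX”, which had less WWOX than every “Vec” library, CNN2 and TAGLN2 passed (log2FC -1.17 and -1.30). The share of all genes that passed in this setting is not given, so these calls stand without a background. For the T98G effect minus the U251MG effect, 0 of 8 passed by limma, edgeR, limma-voom, or DESeq2 (0.868% of all genes by limma), with 3 at an unadjusted p under 0.05 (CALD1, MYL9, and TAGLN2), beside 14.1% of all genes. The variants had no overlapping libraries for 5 of 8 genes of U87MG (17.5% of all genes), 2 of T98G (16.2%), 3 of U251MG (10.4%), and 4 of DBTRG-05MG (19.8%). Without TAGLN, whose values in U87MG and DBTRG-05MG were known when it was chosen, it was 4 of 7 in U87MG and 3 of 7 in DBTRG-05MG, and the median log2FC was -0.14 and 0.78. The direction was shared in T98G and U251MG (all lower) and in DBTRG-05MG (all higher), whereas U87MG had 3 higher and 2 lower.

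The summed level of the genes was also compared, and it is carried by the few abundant ones. In U251MG the sum of the 10 genes was 2361 to 2686 CPM in “Vec” and 1206 to 1775 CPM in “WWOX”, without overlap. In the other lines the sums overlapped, with means of 1943 and 1738 CPM in U87MG, 2047 and 2077 CPM in T98G, and 1943 and 2010 CPM in DBTRG-05MG for “Vec” and “WWOX”. The median deviation of the 8 genes from the “Vec” mean was -0.92, -0.14, and -0.54 on the log2 scale in the 3 “WWOX” libraries of U251MG. Over the 1233 genes with the highest mean level it was -0.46, 0.28, and -0.33 in the same libraries. The part of such library differences in the values was not tested.

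The levels of the 8 genes in control cells were then compared between lines. Among the 4 “Vec” groups, 30 of 43 comparisons of a gene between a pair of lines passed the threshold (limma), leaving out those of TAGLN with U87MG or DBTRG-05MG. The filter itself favors a call where a gene reached 5 CPM in 1 line of the pair only, as in 8 comparisons of ACTA2, MYL9, and TAGLN, all of which passed, and 22 of the other 35 passed. By pair, with these included, 5 of 7 genes passed between U87MG and T98G (39.8% of all genes), 6 of 7 between U87MG and U251MG (38.6%), and 6 of 7 between U87MG and DBTRG-05MG (44.1%). It was 5 of 8 between T98G and U251MG (32.3%), 3 of 7 between T98G and DBTRG-05MG (41.2%), and 5 of 7 between U251MG and DBTRG-05MG (31.6%). MYL9 passed in all 6 pairs, 4 of which are among the 8. Its level was highest in U87MG (205.6 ± 53.9 CPM), then in DBTRG-05MG (106.0 ± 36.1), T98G (2.90 ± 0.960), and U251MG (0.228 ± 0.0859). The closest neighbors, U87MG and DBTRG-05MG, differed by 1.19 ± 0.399 on the log2 scale (limma, adjusted p = 0.01892).

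TPM2 separated U87MG from the rest. The level in U87MG minus that in T98G, U251MG, and DBTRG-05MG was -4.99, -4.38, and -4.38 on the log2 scale (limma, adjusted p = 2.839e-10, 2.389e-09, and 2.259e-09), and the other lines did not pass the threshold against each other (limma, adjusted p between 0.2071 and 1.0). TPM1 was lowest in DBTRG-05MG (40.2 ± 7.97 CPM), and U87MG (520.4 ± 130.0) and T98G (382.3 ± 43.1) did not pass against each other (log2 difference 0.43 ± 0.294, limma adjusted p = 0.2684). ACTA2 was highest in U87MG, and TAGLN in T98G, where it exceeded U251MG by 3.66 ± 0.434 on the log2 scale. This comparison of TAGLN is among the 8 that the filter favors, so it is given as a value. U87MG and U251MG shared a medium, and in the other pairs the lines and their media cannot be told apart.

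As a description over 24 libraries, which share lines and vectors, the correlations among the 8 genes were of both signs. The Pearson r of log2 values was 0.66 between ACTA2 and MYL9 and -0.88 between ACTA2 and TPM2. TAGLN had an r of 0.45 with MYL9, 0.22 with CALD1, 0.18 with ACTA2, and -0.33 with TAGLN2. Once each value was taken as a deviation from the mean of its group, r was 0.38 both between ACTA2 and MYL9 and between ACTA2 and TPM2, whose sign thus turned. TAGLN then had an r of 0.40 with MYL9, 0.04 with CALD1, 0.70 with ACTA2, and 0.39 with TAGLN2, and r was above 0 with each of the other 7 genes (0.04 to 0.70). Between TAGLN2 and TPM2 it went from -0.37 to 0.75. Among the 5 genes most like TAGLN over the 24 libraries were LUM (r = 0.783), which encodes a collagen-binding proteoglycan, SLC27A5 (0.776), a bile acid and fatty acid CoA ligase, NPL (0.731), a sialic acid lyase, and RHBDL1 (0.731), a member of the rhomboid family. MYL9 was 481st of 12326 genes in this order, the closest of the other contractile genes. LUM measured 0.190 and 6.73 CPM in U87MG “Vec” and “WWOX” and 0.416 and 1.10 CPM in DBTRG-05MG “Vec” and “WWOX”. These values entered its choice by likeness to TAGLN, so they are no separate result. LUM was at 0 in all 6 U251MG libraries.

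The surrounding pathway was described with 5 lists of genes. The lists share genes, among them TPM4, MYL6, MYLK, CSRP1, ACTG1, SRF, and CCN2, so the same gene can be counted in several lists. The other smooth muscle contractile genes (18, of which 9 were tested), SRF and its cofactors (9, of which 8 were tested), and other targets of SRF with MRTF (20, all tested) had 0 genes past the threshold in any of the 4 lines (limma, all libraries). Of all genes, 3.2% passed in U87MG and 1.02% in DBTRG-05MG, beside the shares given above for T98G and U251MG. Without the second library labelled “WWOX” of U251MG, CSRP1, MYL6, and TLN1 of these lists passed in that line (limma). At an unadjusted p under 0.05 these lists had between 0 and 4 genes per line, beside 11.5% of all genes in U87MG, T98G, and U251MG and 7.6% in DBTRG-05MG, and DESeq2 passed FHL1 and TPM4 in U87MG (limma log2FC -1.23 and 0.87), whereas edgeR and limma-voom passed 0 in every line. FHL1 is a LIM protein of muscle, and TPM4 is a tropomyosin. SRF measured 10.3 and 7.56 CPM in U87MG “Vec” and “WWOX” (log2FC -0.53), 14.6 and 9.45 in T98G (-0.72), 16.7 and 13.0 in U251MG (-0.42), and 8.65 and 7.65 in DBTRG-05MG (-0.23). The coactivator MRTFB had a log2FC of 0.92 in DBTRG-05MG and 0.07 in U87MG, and neither passed (limma, adjusted p = 0.7123 and 1.0). CCN1 and CCN2, matrix proteins induced by SRF and YAP, had a log2FC of 1.56 and 0.48 in DBTRG-05MG and of -0.07 and 1.59 in U87MG, and none passed (limma, adjusted p between 0.3879 and 1.0).

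Among 20 non-muscle actomyosin genes, all tested, 1 passed in U87MG (TAGLN3, lower, given above) and 0 in the other lines by limma with all libraries kept. In U87MG edgeR and DESeq2 passed MYH10, a heavy chain of non-muscle myosin (log2FC 1.24), and DESeq2 passed TPM4. MYH10 was low there, with means of 0.171 and 1.18 CPM in “Vec” and “WWOX”, beside at least 36.6 CPM in each group of the other lines. DESeq2 also passed TAGLN3 in T98G, with 0 tags in all 3 “WWOX” libraries. In U251MG 0 of these 20 had a positive log2FC (median -0.64), beside 49.66% of all genes and 31.63% of the 1233 genes with the highest mean level, and the count was also 0 under CPM as deposited and median of ratios scaling. Their median deviation was -0.72, -0.64, and -0.43 in the 3 “WWOX” libraries. At an unadjusted p under 0.05 there were 9 of these 20 non-muscle genes in U251MG, all lower, beside 11.5% of all genes, among them ACTG1 (cytoplasmic gamma actin, 10800 and 6474 CPM in “Vec” and “WWOX”, log2FC -0.75, limma adjusted p = 0.3899). DESeq2 passed 1 of them (MYL12A), and edgeR and limma-voom passed 0. Without the second library labelled “WWOX” of U251MG, limma passed MYH14, MYL12A, and MYL6 of this list. MYH14 had means of 4.19 and 2.91 CPM in U251MG “Vec” and “WWOX” and group means of at most 0.043 CPM in the other lines. It thus met the filter through U251MG, with at most 5.25 CPM in a library, which can favor this call. The 20 other targets of SRF with MRTF share genes with the non-muscle list, ACTG1 and TPM4 among them, so both counts are not separate results. Of these targets, 1 was positive in U251MG by limma (median -0.39) and 4 by edgeR or DESeq2 (-0.33 and -0.31). EdgeR and DESeq2 placed 57.25% and 57.32% of all genes above 0. Among the non-muscle genes, positive values numbered 6 of 20 in U87MG (median -0.11), 13 in T98G (0.18), and 12 in DBTRG-05MG (0.04). For the T98G effect minus the U251MG effect, MYL12A and MYL12B were the pathway genes past the threshold (limma), beside 0.868% of all genes. By edgeR and limma-voom MYL12A alone passed, and DESeq2 passed CSRP1, MYL12A, MYL12B, and TPM4. Without the second library labelled “WWOX” of U251MG, limma passed CSRP1, MYL12A, MYL12B, MYL6, and TPM4.

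Genes of the TGF-beta pathway, a known inducer of TAGLN and ACTA2, numbered 20, of which 17 were tested. In U87MG 4 passed the threshold (limma), and 0 did in each other line by limma, edgeR, limma-voom, or DESeq2, where 2 had an unadjusted p under 0.05. Without the second library labelled “WWOX” of U251MG, FN1 of this list passed in that line (limma). Of the 4 genes in U87MG, COL1A1, a chain of type I collagen, fell from 354.1 ± 177.1 to 94.5 ± 46.6 CPM (log2FC -1.91 ± 0.515, limma adjusted p = 0.04057), and the ligand TGFB3 from 8.37 ± 3.51 to 2.68 ± 0.308 CPM (-1.47 ± 0.374, limma adjusted p = 0.02678). SMAD2, a signal transducer of the receptors, rose from 16.3 ± 3.07 to 38.5 ± 7.09 CPM (1.16 ± 0.242, limma adjusted p = 0.005425). The call of SMAD2 remained in 10 of 11 alternatives, those of TAGLN3 and COL1A1 in 5 and 4 of 11, and that of TGFB3 in 3 of 10. Leaving out single libraries gave 1 to 7 calls among the pathway genes, with 1 without “Vec” library 2 (TAGLN3) or 3 (SMAD2) of U87MG, 2 without its “WWOX” library 1 (COL1A1 and SMAD2) or 2 (SMAD2 and TAGLN3), and 3 without its “WWOX” library 3 (MYH10 and SMAD2 among them).

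**Figure D4:**
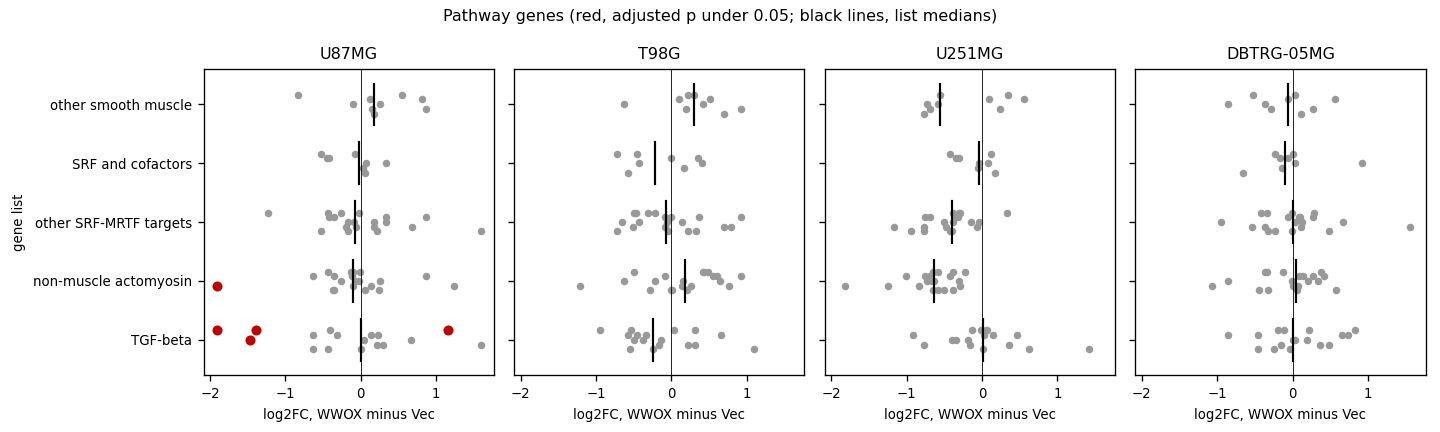
Each point is a gene tested in 1 of the 5 lists (vertical axis), placed by its log2FC of “WWOX” minus “Vec” in 1 of the 4 lines (panels), with red points for adjusted p under 0.05 and black lines for list medians. Red points occur in U87MG alone (among them TAGLN3, COL1A1, TGFB3, and SMAD2), and all 20 non-muscle actomyosin genes lie left of 0 in U251MG.

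Markers of other cell types were read beside these values. The labels give cancer cells of glioblastoma, and of 10 glial and neural stem markers the most abundant, GFAP, ranged from 0.790 to 3226 CPM. The summed level of the list was 22.0 ± 2.43 CPM in T98G “Vec” and 3242 ± 659.0 CPM in U251MG “Vec”. In the 3 “WWOX” libraries of U251MG it was 529.6, 2889, and 3862 CPM, lowest in the first, in which the sum of the 10 contractile genes was also lowest, and the part of this library difference was not tested. Of the list, 0 of the 8 genes tested passed in any line by limma, edgeR, limma-voom, or DESeq2, with 0 at an unadjusted p under 0.05. The pericyte and vascular smooth muscle list of 10 was led by PDGFRB (at most 66.7 CPM), and 0 of its 4 genes tested passed in any line by the same tools, with at most 2 in a line at an unadjusted p under 0.05 (CSPG4 and MCAM in DBTRG-05MG). Its sum was 59.2 ± 17.4 and 54.9 ± 10.8 CPM in U87MG “Vec” and “WWOX” and 16.5 ± 0.513 and 14.4 ± 1.91 CPM in DBTRG-05MG. In T98G it was 76.1 ± 8.32 and 47.5 ± 2.44 CPM, without overlap, in the line where TAGLN was also lower in “WWOX” libraries, but 15.6 and 15.1 CPM without PDGFRB, and in U251MG 16.8 ± 4.43 and 15.1 ± 8.25 CPM. In U87MG the fibroblast list of 10 had LUM and DCN higher (log2FC 2.87 and 1.50) and COL1A1, COL1A2, and TWIST1 lower (-1.91, -1.46, and -1.84). LUM and DCN reached the filter of 5 CPM in U87MG “WWOX” libraries alone, and the filter itself favors such a call. Of the limma calls, edgeR passed 3 (COL1A2, LUM, and TWIST1) and limma-voom and DESeq2 passed 4 (all but DCN). The sum of the list was 499.5 ± 198.3 and 180.3 ± 84.4 CPM in U87MG “Vec” and “WWOX”. The sum was 228.6 ± 41.2 and 155.5 ± 12.1 CPM in DBTRG-05MG, without overlap, and overlapped in T98G (471.2 and 413.6) and U251MG (804.6 and 622.8). In these 3 lines limma, edgeR, and limma-voom passed 0 genes of the list, and DESeq2 passed PDGFRA in T98G and THY1 in DBTRG-05MG. The most abundant gene of that list over all libraries was THY1, with at most 710.4 CPM.

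In the endothelial list of 8 the most abundant gene over all libraries was KDR (at most 6.22 CPM). CDH5 and ESAM reached higher values in single libraries (13.2 and 7.86 CPM), and PECAM1 and CLDN5 had 3 tags or fewer in every library. CDH5 had means of 2.84 and 8.26 CPM in U251MG “Vec” and “WWOX” (log2FC 1.28), which passed by limma but not by edgeR, limma-voom, or DESeq2. Its group means were at most 0.0874 CPM in the other lines. It thus met the filter through U251MG, which can favor this call, so it is given as a value. The sum of the list was at most 15.8 CPM in any library. The immune list of 8 was led by LCP1, which rose in DBTRG-05MG (log2FC 2.05), where the sum was 6.09 ± 2.01 and 27.5 ± 9.73 CPM. Without LCP1, an actin-bundling protein that tumor cells also express, the sum was 0.261 and 0.121 CPM, and PTPRC, AIF1, and CD3E had 3 tags or fewer in every library. The part of the pericyte and fibroblast markers and of LCP1 in the values of TAGLN was not tested.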

How the data were processed

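CAGE-Seq of 24 libraries (8 groups of 3) was analyzed. Per the labels and methods, the authors aligned reads to hg38 with STAR, counted tags per gene with SAMtools, and deposited them as CPM that sum to 1000000 in each library. The annotation release and the use of strand are not given in the sources used here. The single-library tables (24) held the same values. All 43037 genes but 4 were matched to a symbol. Each value was a whole number of tags (100.0% within 0.01), which gave 10756072 to 16953689 tags per library. The number of sample columns not used was 0.

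For the comparisons, TMM scaling without weights (trimming 30% of M and 5% of A) was applied and log2(CPM + 0.5) taken. A limma trend model of 8 groups (16 residual degrees of freedom) was fitted to 12327 genes, with two-sided p adjusted by Benjamini-Hochberg and a threshold of 0.05. The median SE was 0.321 in a line and 0.454 for the difference of T98G and U251MG. The 10 contractile genes, the 5 pathway lists, and the 5 marker lists were chosen with earlier results of these data known. Genes named were the 10, WWOX, up to 4 pathway genes past the threshold per list and line, the 5 genes most correlated with TAGLN, and in marker lists the most abundant gene and those at 3 tags or fewer. Pathway genes without a limma call in any line with all libraries kept (SRF, MRTFB, CCN1, CCN2, ACTG1, PPP1R12B, CSRP1, SMTN, MYLK, MYH11, MYOCD, and DES), the markers that were called (by any tool), ESAM, FHL1, TPM4, MYH10, MYH14, MYL6, MYL12A, MYL12B, TLN1, and FN1 were named after their values were seen. Alternatives changed the pseudocount (0.1 or 1), the filter (none, or a mean CPM of 5 or more), the scaling (none, or median of ratios), the model (each line alone, or a replicate block), and the test (edgeR quasi-likelihood, limma-voom, or DESeq2, each on the recovered tags), or left out single libraries. In 2 of these sets (the TGF-beta list and the genes most correlated with TAGLN), 1 gene each is counted and not reported here. Procedures were tested on simulated data. Positions are from GENCODE 44 and promoters from RefSeq. Software was Python 3.11.15 (pandas 2.3.3, numpy 2.4.6, matplotlib 3.10.9) and R 4.3.3 with DESeq2 1.42.0, edgeR 4.0.16, and limma 3.58.1.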

Additional observations from a re-analysis of the deposited data

Results flagged for a closer look

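For 5 genes, all 3 “WWOX” libraries were above “Vec” in 1 line and below it in another, and the differences between lines were not tested. TAGLN had a log2FC of 5.38 in U87MG and 4.36 in DBTRG-05MG against -1.05 in T98G. ACTA2 had 0.60 in U87MG and 1.00 in DBTRG-05MG against -1.13 in U251MG. MYL9 had 1.18 in U87MG against -2.06 in T98G. TPM1 had -1.78 in U87MG against 1.65 in DBTRG-05MG, and CALD1 had -1.24 in U251MG against 0.88 in DBTRG-05MG.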

How the results depend on the processing

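With all libraries kept, the log2FC of the 8 genes changed sign for ACTA2 in T98G, which is near the limit of detection (-0.00 with a pseudocount of 1, -0.023 with CPM as deposited, -0.419 with edgeR, and -0.315 with DESeq2), and for TAGLN in U251MG (-0.113 with limma-voom). A separate model per line gave 0 of 8 genes in T98G in place of 1. In U87MG the count of pathway genes, 5 in the report, was 2 without a filter or with CPM as deposited, 3 with a mean of at least 5 CPM, edgeR, or limma-voom, 8 with DESeq2, and 0 in a model of that line. In T98G, where it was 0, a pseudocount of 0.1 and DESeq2 each gave 1 (TAGLN3), and in U251MG DESeq2 gave 1. Of the 5 genes most like TAGLN, 1 remained with a mean of at least 5 CPM and 2 without a filter. The log2FC of TAGLN ran from 4.84 to 6.40 in U87MG and from 4.01 to 5.08 in DBTRG-05MG over the alternatives. The causes were not tested.

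Leaving out single libraries gave 0 to 1 of 8 genes in T98G, 0 to 2 in U251MG, 0 to 1 for their difference (CALD1 without the second “Vec” library of T98G or the first “WWOX” library of U251MG, MYL9 without the first “WWOX” library of T98G), and 27 to 32 calls between “Vec” groups. Pathway genes numbered 1 to 7 in U87MG, 0 to 2 in T98G (2 without its second “Vec” library, MYL12B and TPM4), and 0 to 6 in U251MG. The 6 of U251MG passed without its second library labelled “WWOX” (CSRP1, FN1, MYH14, MYL12A, MYL6, and TLN1). Among them MYH14 met the filter through U251MG, and the share of all genes in this setting is not given. Of the 5 genes most like TAGLN, 2 to 5 remained. Ranges that crossed 0 were -0.346 to 0.461 for ACTA2 and -0.327 to 0.078 for TPM2 in T98G, and -0.471 to 0.186 for TPM1 and -0.258 to 0.433 for TAGLN in U251MG.

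Replicate numbers did not pair the libraries (r of deviations from -0.546 to 0.51, over 0.1 in 4 of 12 pairs). With the replicate block, 2 pathway genes passed in U87MG (SMAD2 and TAGLN3) and the count in T98G stayed at 1 of 8. With 3 libraries per group and a median SE of 0.321, small changes were not detectable, and genes near the limit of detection rest on few tags.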
